A study of Mus musculus with 2 samples.

Results

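Matrix metalloproteinases (MMPs) and their tissue inhibitors (TIMPs) were followed through the mononuclear cells of limb muscle from mice given the drug Maraviroc (MVC) or DMSO. The 8 genes were Timp1, Timp2, Timp3, Timp4, Mmp2, Mmp3, Mmp9 and Mmp14, matched by gene symbol among the 32285 genes of the count matrices. They were chosen by their UMI levels across the cell types of these same libraries, so all values are given as descriptions and no test was run on any of them.

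MMPs are zinc-dependent enzymes that cut the proteins of the extracellular matrix and many proteins held in it, and they are made as inactive precursors. TIMPs block them by binding the active site. Mmp14, also called MT1-MMP, sits in the cell membrane and, with Timp2 as a bridge, turns the precursor of Mmp2 into its active form. In muscle these enzymes take part in matrix turnover, in the growth of vessels and in repair after injury, and several of them are secreted by senescent cells.

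The study asked whether MVC changes the aged muscle niche. Each treatment had 1 library (DMSO and MVC) of sorted live mononuclear cells from limb muscle of aged C57BL/6 mice, made on the 10x Genomics platform. The control mice were given DMSO and the others MVC, intraperitoneally in the study's description. Neither the dosing regime nor the number of mice pooled in a library is given in the labels. With 1 library a group, the difference between treatments cannot be told apart from the difference between libraries, and all intervals below cover counting error only.

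Of 5812 barcodes in the DMSO library and 6047 in the MVC library, 5437 and 5454 were kept, those with 500 or more genes and no more than 10% of their UMIs from mitochondrial genes, where a UMI (unique molecular identifier) counts 1 captured RNA molecule. The kept cells held 38748234 and 35518029 UMIs, with medians of 5802 and 5195 a cell, and 8 kept barcodes were the same in both libraries. Clusters were drawn without the MMP, TIMP, ADAM and ADAMTS genes and named from marker genes as "like" a cell type, and 20 classes were named. They included capillary-, arterial-, venous- and lymphatic-like endothelial cells (ECs), adventitial-, inflammatory- and parenchymal-like fibro-adipogenic progenitors (FAPs), tenocyte-like cells of 2 kinds (led by Col22a1 and Thbs4, or by Angptl7), and muscle stem cell (MuSC)-like, mural, nerve-associated and immune cells. A level is given as CPM, the UMIs of a gene per 1000000 UMIs of the class in that library. A gene with at least 50 UMIs in a class was counted as past the fold when its MVC level was at least 1.5 times the DMSO level or at most the inverse of this. This was read in 16 classes with at least 50 cells in each library.

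Timp1 lies on chromosome X (20870166-20874735, + strand, GRCm38), Timp2 on chromosome 11 (118301069-118355740, - strand), Timp3 on chromosome 10 (86300372-86349506, + strand) and Timp4 on chromosome 6 (115241892-115252205, - strand). Mmp2 lies on chromosome 8 (92827291-92853420, + strand), Mmp3 on chromosome 9 (7445822-7455975, + strand), Mmp9 on chromosome 2 (164940780-164955850, + strand) and Mmp14 on chromosome 14 (54431612-54445364, + strand). All are protein-coding genes. The 250 bases before the RefSeq start (GRCm38.p6) are shown for Mmp3, Timp1 and Timp4, the first and last because they were past the fold over all cells and Timp1 because its ratio went different ways by class, 5′ to 3′ on the strand of the gene. They cover chr9:7445572-7445821 (+ strand), chrX:20869916-20870165 (+ strand) and chr6:115252206-115252455 (- strand). Capitals mark the AP-1 motif TGANTCA, the ETS motif AGGAAG, the GC box GGGCGG and the TATA box TATAAA, each searched on both strands.
Mmp3: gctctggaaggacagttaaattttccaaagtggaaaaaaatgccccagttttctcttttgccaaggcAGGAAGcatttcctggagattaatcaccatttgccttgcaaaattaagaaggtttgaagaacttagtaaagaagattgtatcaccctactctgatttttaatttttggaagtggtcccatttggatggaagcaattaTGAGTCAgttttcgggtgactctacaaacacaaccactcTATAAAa
Timp1: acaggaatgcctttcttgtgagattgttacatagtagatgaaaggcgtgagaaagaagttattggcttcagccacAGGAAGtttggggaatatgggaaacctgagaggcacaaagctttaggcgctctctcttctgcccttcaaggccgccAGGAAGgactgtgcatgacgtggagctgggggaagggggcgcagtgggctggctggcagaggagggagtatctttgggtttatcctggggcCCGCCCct
Timp4: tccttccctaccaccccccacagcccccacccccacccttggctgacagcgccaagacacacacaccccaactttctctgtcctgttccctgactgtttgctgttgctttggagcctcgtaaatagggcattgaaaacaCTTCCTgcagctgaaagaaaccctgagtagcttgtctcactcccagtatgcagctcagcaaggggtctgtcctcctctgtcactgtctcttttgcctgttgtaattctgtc

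The Mmp3 window held the AP-1 motif TGAGTCA 46 to 40 bases before the start, 1 ETS motif and a TATA box match 7 to 2 bases before the start. The Timp1 window held 2 ETS motifs and a GC box on the opposite strand, and the Timp4 window held 1 ETS motif on the opposite strand. Of 32851 promoter windows of the same length, 6.75% held the AP-1 motif, 29.5% the ETS motif, 32.7% the GC box and 12.4% the TATA box. Mmp3 was the only member with the AP-1 motif among the 6 in the promoter table, which held neither Mmp2 nor Mmp9. A match of letters describes the window and does not show that a factor binds there.

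Over all cells, Mmp3 was higher in the MVC library and Timp4 was lower, and the other 6 members stayed within 1.5-fold. Mmp3, stromelysin-1, a secreted enzyme with many matrix substrates, had 1392 UMIs in the DMSO library and 3619 in the MVC library, or 35.9 vs. 102 CPM, a ratio of 2.84 (95% interval 2.67 to 3.02). Timp4, the inhibitor best known from heart and vessels, had 6958 vs. 3037 UMIs, or 180 vs. 85.5 CPM, a ratio of 0.48 (0.46 to 0.50). Of all 16805 genes with enough UMIs, 7.63% were past the fold with the higher level in MVC and 5.56% with the lower. The whole-library ratios of the other members ran from 0.70 for Mmp9 to 1.24 for Timp1. Since the mix of cells differed between the libraries, the classes are described next, beginning with where each gene was found.

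**Figure D1:**
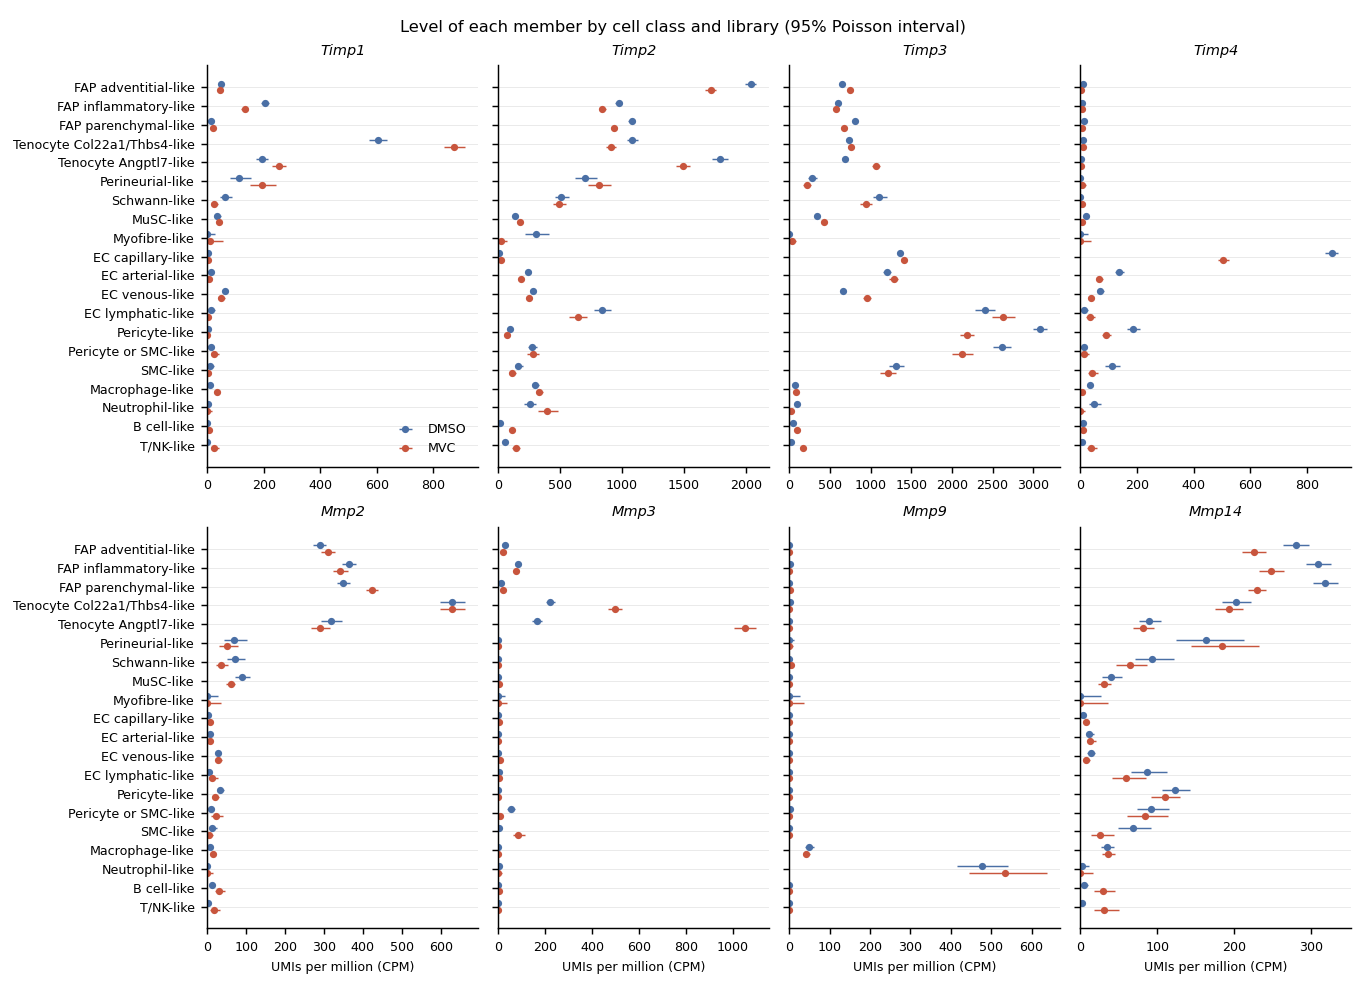
Level of each of the 8 members (CPM, horizontal axis) in 20 cell classes, with DMSO in blue and MVC in red; points are the level of 1 library and bars the 95% Poisson interval. Each gene has its own horizontal scale. Timp4 peaks in capillary-like ECs (888 vs. 505 CPM), Mmp3 in the tenocyte-like classes and Mmp9 in neutrophil-like cells, whereas Timp2 and Timp3 are spread over many classes.

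Timp4 was in the first place a capillary gene in both libraries. Capillary-like ECs were 29.9% of the DMSO and 28.9% of the MVC cells and held 81.9% and 81.6% of all Timp4 UMIs. Their level was 888 CPM (95% Poisson interval 865 to 911; 5700 UMIs in 1628 cells) in DMSO and 505 CPM (485 to 525; 2478 UMIs in 1575 cells) in MVC, a ratio of 0.57 (0.54 to 0.60). Among the 16 classes in DMSO the pericyte-like, arterial-like and venous-like cells came next in that order, each apart from its neighbours beyond the counting intervals. In MVC the intervals of pericyte-like (91.3 CPM) and arterial-like cells (67.3 CPM) met. The 3 genes whose levels over the 40 points of class and library were most like Timp4 were the endothelial adhesion gene Esam (Pearson r = 0.88 on the log2(CPM + 10) scale), Gpihbp1, which carries lipoprotein lipase across the capillary wall (r = 0.88), and the endothelial transcription factor Sox17 (r = 0.88).

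The lower Timp4 level in the MVC library was seen in each of the blood EC subtypes and not in the lymphatic one. Arterial-like ECs had 252 vs. 108 UMIs, 137 vs. 67.3 CPM, a ratio of 0.49 (0.39 to 0.62). Venous-like ECs had 145 vs. 58 UMIs, 70.7 vs. 36.1 CPM, a ratio of 0.51 (0.37 to 0.70). Their intervals overlapped each other and that of the capillary-like cells. Lymphatic-like ECs had 9 UMIs in 75 DMSO cells and 17 in 78 MVC cells, a ratio of 2.36 whose interval (0.99 to 5.998) held 1, and 4 and 8 of these UMIs lay in cells called as doublets. In the venous-like cells, 64 and 27 of the Timp4 UMIs lay in doublet calls, and the share of cells with a Timp4 UMI was 13.6% vs. 13.0% at full depth and 6.28% vs. 4.26% with cells thinned to 2000 UMIs.

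Of the 3 members read in arterial-like cells and the 5 in venous-like cells, only Timp4 was past the fold. Among all genes, 3.87% were this much lower and 8.1% this much higher in MVC in arterial-like cells, and 10.8% and 7.91% in venous-like cells, so that a gene past the fold downward was more common in the latter. In capillary-like cells, where 5 members were read, 3.84% of all genes were past the fold downward. Over all EC-like cells Timp4 went from 557 to 308 CPM, a ratio of 0.55 (0.53 to 0.58), and was the only 1 of 6 members past the fold, where 3.88% of genes were as much lower and 9.79% as much higher. Weighting the MVC subtypes by their share of the DMSO endothelial UMIs gave 316 CPM, a ratio of 0.57, and weighting the 7 EC-like clusters in this way gave 282 CPM, a ratio of 0.51. These stand beside the measured ratio of 0.55, and the part of the make-up of the endothelium in it was not tested.

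All 4 clusters of capillary-like cells had the lower Timp4 level in MVC. Cluster 1, led by Slc1a1 and Cldn5, had 633 CPM in 636 DMSO cells and 320 CPM in 389 MVC cells, a ratio of 0.51 (0.45 to 0.56). Cluster 2, led by the BMP target Id1, had 956 vs. 539 CPM, a ratio of 0.56 (0.52 to 0.61). Cluster 4, led by Rassf9 and Ablim3, held 210 DMSO and 447 MVC cells and had 1495 vs. 756 CPM, a ratio of 0.51 (0.46 to 0.55). Cluster 7, led by Patl2 and Trim69, had 990 vs. 379 CPM, a ratio of 0.38 (0.34 to 0.43), the lowest of the 4. The clusters took different shares of the capillary-like cells in the libraries, with cluster 1 the largest in DMSO and cluster 4 the largest in MVC, and the median depth of cluster 7 was 3676 UMIs in DMSO and 1965 in MVC. The summed level of the 8 EC markers in capillary-like cells was 9265 vs. 8447 CPM. A further 144 EC-marker cells of low depth (median 1250 and 1257 UMIs) were left out of the subtypes, and there Timp4 had 1482 vs. 1004 CPM, a ratio of 0.68 (0.51 to 0.89). Neither of the 2 members read there was past the fold, beside 9.89% of all genes lower and 17.8% higher.

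Within capillary-like cells, both the share of cells with Timp4 and the UMIs per cell were lower in MVC at equal depth. At full depth 77.3% of DMSO and 54.1% of MVC cells had a Timp4 UMI. Their median depths were 3450 and 2853 UMIs, so each cell was also thinned to 2000 UMIs, which left out 182 DMSO and 527 MVC cells. Then 66.9% vs. 51.2% had a Timp4 UMI (difference -15.6 percentage points), 25.1% vs. 13.8% had 3 or more, and the mean was 1.75 vs. 1.04 UMIs a cell. B cell-like cells, which should lack the gene, had it in 2.91% (6 of 206, median depth 5071 UMIs) and 1.89% (2 of 106, 5334 UMIs), and 1.49% and 1.10% when thinned, which gives the background of free RNA and mixed droplets. The lymphatic-like share, 0 of 75 (up to 4.80% by the exact interval) and 3.95% of 76 thinned cells (0.82% to 11.1%), had intervals that held that background.

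**Figure D2:**
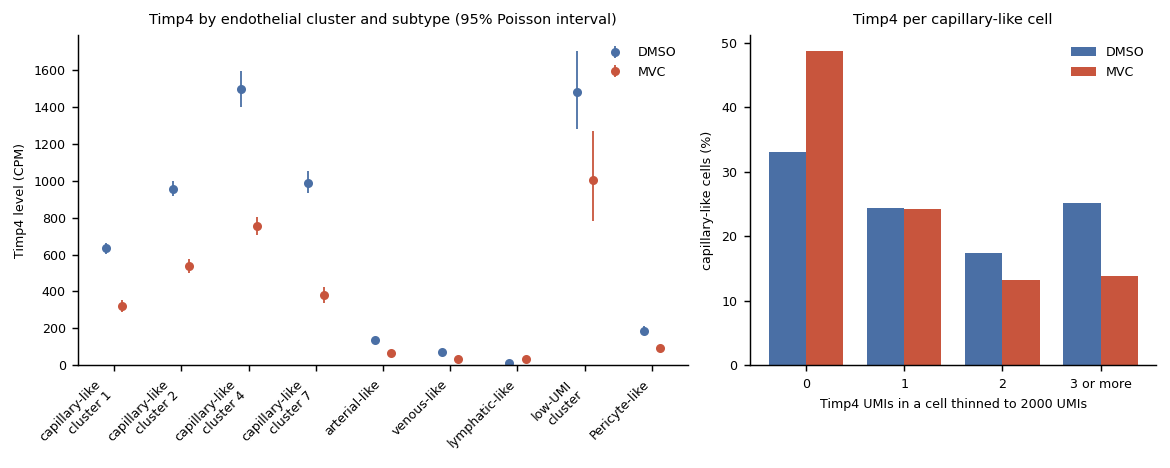
Left, Timp4 level (CPM) in the 4 capillary-like clusters, the other EC subtypes, the low-UMI EC cluster and pericyte-like cells, with DMSO in blue, MVC in red and bars for the 95% Poisson interval. Right, percent of capillary-like cells with 0, 1, 2 or 3 or more Timp4 UMIs after thinning each cell to 2000 UMIs. All 4 capillary-like clusters are lower in MVC, and cells with 3 or more UMIs go from 25.1% to 13.8%.

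Outside the endothelium Timp4 was highest in pericyte-like cells, and many of its UMIs there lay in cells called as doublets. These cells had 290 vs. 109 UMIs, 187 vs. 91.3 CPM, a ratio of 0.49 (0.39 to 0.61), but 167 and 34 of these UMIs lay in doublet calls, and without doublets the log2 ratio was -0.49 instead of -1.04. The 8 EC markers summed to 1709 vs. 1892 CPM in these cells. In FAP-like cells the gene had 123 and 88 UMIs, of which 98 and 42 lay in doublet calls. Macrophage-like cells had 61 vs. 11 UMIs (ratio 0.16), of which 33 and 3 lay in doublet calls. The summed level of the 8 EC markers in macrophage-like cells was 446 vs. 194 CPM. Its part in the lower Timp4 level there was not tested.

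Timp3, the inhibitor that stays bound to the matrix and also blocks ADAM and ADAMTS enzymes, was found in many classes. Its highest levels were in mural cells and in lymphatic-like, capillary-like and arterial-like ECs. In DMSO its level was highest in pericyte-like cells at 3086 CPM (2999 to 3175), followed by cells with markers of both pericytes and smooth muscle (2613 CPM) and by lymphatic-like ECs (2406 CPM). Capillary-like and arterial-like ECs had 1360 and 1201 CPM, Schwann-like cells 1109 CPM and venous-like ECs 666 CPM. The FAP-like and tenocyte-like classes had 604 to 810 CPM, and FAP-like cells held 8980 of the 35196 Timp3 UMIs. In MVC lymphatic-like ECs were highest at 2627 CPM (2489 to 2771), before pericyte-like cells at 2181 CPM (2098 to 2266), whose interval met that of the pericyte or smooth muscle class. Pericyte-like cells thus had 4775 vs. 2604 UMIs and a ratio of 0.71 (0.67 to 0.74), within 1.5-fold, though past it without doublet calls (log2 ratio -0.66 instead of -0.50). Their share with a Timp3 UMI went from 97.3% to 85.7%, and from 97.0% to 89.3% when thinned.

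Timp3 was higher in MVC in Angptl7 tenocyte-like and venous-like cells. Angptl7 tenocyte-like cells had 686 CPM in DMSO (647 to 727; 1167 UMIs) and 1066 CPM in MVC (1019 to 1114; 1936 UMIs), a ratio of 1.55 (1.44 to 1.67), which under a thinning of cells to 2000 UMIs was 0.51 on the log2 scale instead of 0.63, below 1.5-fold. Col22a1/Thbs4 tenocyte-like cells did not share it, with 734 vs. 763 CPM, a ratio of 1.04 (0.97 to 1.11). Venous-like ECs had 666 vs. 958 CPM, a ratio of 1.44 (1.34 to 1.55), and their thinned share of cells with the gene was 48.9% vs. 72.3%. Capillary-like ECs, which held more Timp3 UMIs than any other of the 16 classes, had 1360 vs. 1406 CPM, a ratio of 1.03 (1.002 to 1.067) that turned below 1 when scaled by the median gene. Timp3 and Timp4 thus differed in their ratios within the same capillary-like cells, 1.03 against 0.57, with intervals that did not meet. The genes most like Timp3 over the classes were Syn3 (r = 0.94), inside which Timp3 lies, Tcf7l1 (r = 0.91) and Rhoj (r = 0.91), an endothelial GTPase.

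Timp2, which both inhibits MMPs and bridges Mmp14 to the Mmp2 precursor, was a gene of FAPs and tenocytes. FAP-like cells held 64.5% of its UMIs in DMSO and 64.0% in MVC, and 95.6% and 94.2% of them had a UMI of it. Its level was highest in adventitial-like FAPs, at 2041 CPM (1996 to 2086) vs. 1717 CPM (1674 to 1760), a ratio of 0.84 (0.81 to 0.87). Angptl7 tenocyte-like cells were next with 1792 vs. 1490 CPM (ratio 0.83), and the Col22a1/Thbs4 tenocyte-like and parenchymal-like FAP cells followed with intervals that met in both libraries. In each of the 5 FAP-like and tenocyte-like classes the level was lower in MVC, with ratios of 0.83 to 0.87, none of them past 1.5-fold. Fgl2 (r = 0.81), Nupr1 (r = 0.81) and Rnase4 (r = 0.80) were most like it.

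Mmp2, the gelatinase that cleaves denatured collagen and basement membrane collagen, had the same main cells as Timp2. Its level was highest in Col22a1/Thbs4 tenocyte-like cells and equal in both libraries, 630 CPM (597 to 663; 1424 UMIs) vs. 630 CPM (598 to 663; 1449 UMIs), with an interval of the ratio from 0.93 to 1.08. Parenchymal-like FAPs had 350 vs. 423 CPM, a ratio of 1.21 (1.14 to 1.29), whereas inflammatory-like FAPs had 365 vs. 342 CPM and a ratio of 0.94 (0.87 to 1.01). MuSC-like cells had 88.8 vs. 60.2 CPM (91 vs. 111 UMIs), a ratio of 0.68 (0.51 to 0.91), just inside 1.5-fold. Over 7 alternatives its log2 ratio, -0.56, ran from -0.94, past the fold, to -0.53. Of these UMIs 1 in DMSO and 22 in MVC lay in doublet calls. The 7 FAP markers summed to 423 vs. 1741 CPM in MuSC-like cells, and their part in this ratio was not tested. Mxra8 (r = 0.93), Naaladl2 (r = 0.93) and the collagen-degrading protease gene Ctsk (r = 0.92) were most like it.

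Mmp14, the membrane enzyme, was lower in MVC in all 3 FAP classes and close to level in tenocytes. In parenchymal-like FAPs it had 319 CPM (303 to 336) vs. 229 CPM (218 to 241), a ratio of 0.72 (0.67 to 0.77). The inflammatory-like and adventitial-like FAPs had 310 vs. 248 CPM (ratio 0.80, 0.74 to 0.87) and 280 vs. 226 CPM (ratio 0.81, 0.74 to 0.88). None of these was past 1.5-fold, and the median ratio of all genes in FAP-like cells was 0.13 above 0 on the log2 scale. Col22a1/Thbs4 tenocyte-like cells had 203 vs. 193 CPM (ratio 0.95) and Angptl7 tenocyte-like cells 90.0 vs. 81.5 CPM (ratio 0.91), and both intervals held 1. Of the 12 classes in which Mmp14 was read, 10 had a ratio below 1 and 2 above it.

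The 3 genes of the Mmp2 activation complex were found together in most FAP-like cells. Mmp2, Mmp14 and Timp2 were all present in 73.0% of the 1209 DMSO cells (exact interval 70.4 to 75.4) and 63.0% of the 1439 MVC cells (60.4 to 65.5). Median depths were 10329 and 9171 UMIs, and at 2000 UMIs a cell the shares were 17.0% and 15.3%. In tenocyte-like cells the shares were 48.2% and 42.9% at full depth. Capillary-like ECs had all 3 genes in 0 of 1628 and 2 of 1575 cells.

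Mmp9, the gelatinase of leukocytes, was found in neutrophil-like and macrophage-like cells. The 64 neutrophil-like cells of DMSO had 228 UMIs and the 34 of MVC had 122, or 476 and 535 CPM, 66.5% and 55.2% of all its UMIs. With 34 cells in MVC the class was under the 50 needed for a ratio, and 91 and 47 of the UMIs lay in doublet calls. Macrophage-like cells had 93 vs. 88 UMIs, 49.7 CPM (40.1 to 60.9) vs. 41.7 CPM (33.5 to 51.4), a ratio of 0.84 (0.62 to 1.14). In 7 of the 16 classes no UMI was found in either library, where a floor of 3 UMIs allows up to 0.76 to 5.86 CPM by class. The genes most like it over the classes were of neutrophils, F630028O10Rik, Mcemp1 and the receptor gene Csf3r, with r of 0.99 or above.

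Mmp3 reached its highest levels in a minority of tenocyte-like cells, and more such cells were counted in MVC in both tenocyte-like classes. Angptl7 tenocyte-like cells had 280 UMIs in DMSO, 165 CPM (146 to 185), and 1912 UMIs in MVC, 1052 CPM (1006 to 1101), a ratio of 6.39 (5.64 to 7.27). Col22a1/Thbs4 tenocyte-like cells had 502 vs. 1142 UMIs, 222 CPM (203 to 242) vs. 496 CPM (468 to 526), a ratio of 2.24 (2.01 to 2.49). The ratios of the 2 classes lay apart beyond their intervals, and the order of the classes turned with it, since the Col22a1/Thbs4 cells were higher in DMSO and the Angptl7 cells in MVC. Mmp3 was 1 of 6 members read in the Col22a1/Thbs4 cells and the only 1 past the fold there, where 10.7% of all genes were as much higher in MVC and 5.29% as much lower. In the Angptl7 cells Mmp3 and Timp3 were past it among 6, both upward, with 9.37% of all genes as much higher and 8.72% as much lower. Over all tenocyte-like cells Mmp3 had 197 vs. 742 CPM, a ratio of 3.76 (3.47 to 4.07), the only 1 of 7 members past the fold, where 9.27% of genes were as much higher and 5.39% as much lower.

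Per cell, 18 of 194 Angptl7 tenocyte-like cells of DMSO and 50 of 217 of MVC had an Mmp3 UMI, with a mean of 15.6 and 38.2 UMIs in each. Thinned to 2000 UMIs, 5.26% (10 of 190) and 18.8% (39 of 207) had it. In DMSO 3 cells held 65% of the UMIs of the class and in MVC 3 cells held 24%, so that the DMSO level rests on few cells. Of the Col22a1/Thbs4 cells, 22 of 250 in DMSO and 46 of 287 in MVC had an Mmp3 UMI. The mean in each was 22.8 and 24.8 UMIs and the median 12 and 9, and the mean was 5.81 and 8.94 when thinned. There 3 cells held 52.2% and 38.4% of the UMIs. Over both tenocyte-like classes, 19 of 444 DMSO cells and 50 of 504 MVC cells had 10 or more Mmp3 UMIs, and these cells held 93.1% and 94.3% of the UMIs. In the MVC library 31.9% of the thinned cells with Mmp3 also had Timp1, the same as among the cells without Mmp3 (32.0%), and in DMSO it was 38.5% (10 of 26) against 20.3%. These values pool 2 classes that differ in Timp1. In Col22a1/Thbs4 cells the shares were 45.5% against 43.2% in MVC and 56.25% (9 of 16) against 28.6% in DMSO. In Angptl7 cells they were 20.5% against 17.3% in MVC and 10.0% (1 of 10) against 10.0% in DMSO. B cell-like cells, as background, had Mmp3 in 0 of 206 (up to 1.77% by the exact interval) and 1 of 106 cells.

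**Figure D3:**
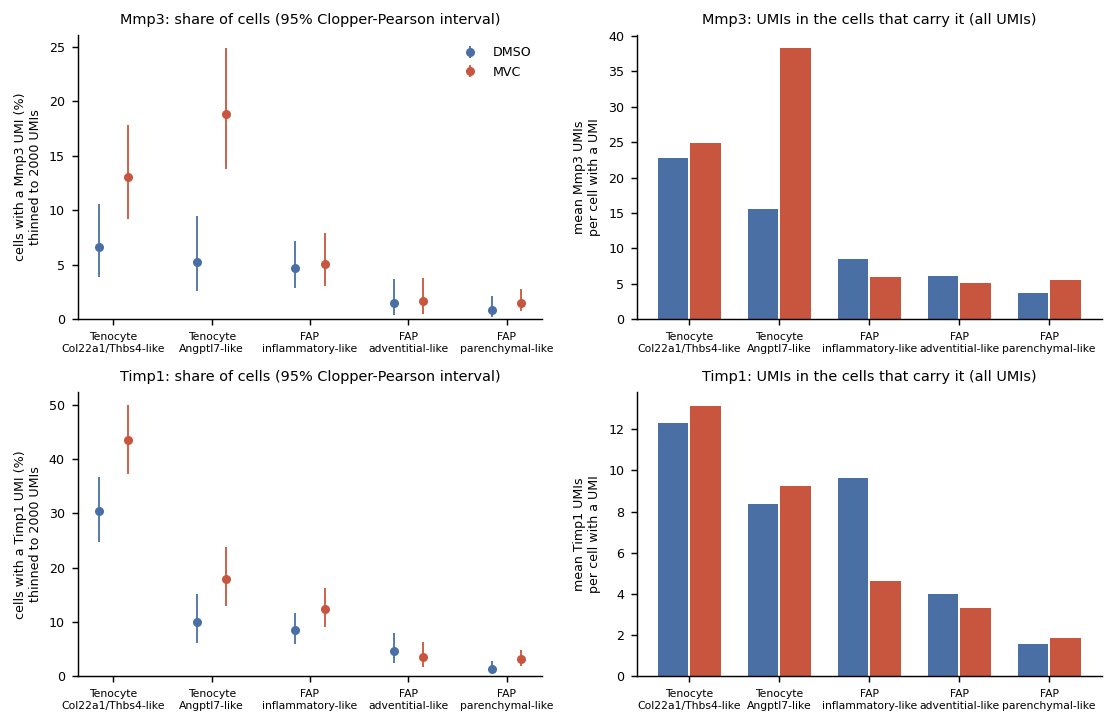
Mmp3 (top) and Timp1 (bottom) in tenocyte-like and FAP-like classes, with DMSO in blue and MVC in red. Left, percent of cells with a UMI of the gene at 2000 UMIs a cell, with 95% Clopper-Pearson intervals; right, mean UMIs of the gene in the cells that carry it, at full depth. In Angptl7 tenocyte-like cells the Mmp3 share goes from 5.26% to 18.8% and the mean from 15.6 to 38.2, while in inflammatory-like FAPs the mean Timp1 count goes from 9.65 to 4.62.

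Inflammatory-like FAPs had 46 Mmp3 carriers in DMSO and 45 in MVC, with a mean of 8.50 and 5.98 UMIs in each. They had 391 vs. 269 UMIs, 85.9 vs. 74.1 CPM, a ratio of 0.86 (0.74 to 1.01) that was -1.06 on the log2 scale, instead of -0.21, with cells thinned to 2000 UMIs. Adventitial-like FAPs had 116 vs. 72 UMIs in 19 and 14 cells, 29.4 vs. 19.9 CPM, a ratio of 0.68 (0.50 to 0.92). In them 3 cells held 62.1% and 70.8% of the UMIs. Parenchymal-like FAPs were past the fold in the direction of the tenocytes, with 48 vs. 145 UMIs and 10.6 vs. 22.6 CPM, a ratio of 2.14 (1.53 to 3.03), but 3 cells held 71% and 77% of these UMIs. In cells with pericyte and smooth muscle markers the direction was the opposite, 46 vs. 4 UMIs and a ratio of 0.15 (0.04 to 0.42), with 3 cells holding 96% and 100% of the UMIs. Mfap4 (r = 0.87), Ptgis (r = 0.85) and Clec11a (r = 0.85) were most like Mmp3 over the classes. Of the 31-base words in Mmp3 transcripts, 14.6% occur in another gene, mainly its neighbour in the family Mmp10, which had 2 UMIs in each library.

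Timp1, a secreted inhibitor that is induced by inflammation, was highest in Col22a1/Thbs4 tenocyte-like cells. These had 1364 UMIs in DMSO, 603 CPM (572 to 636), and 2011 UMIs in MVC, 874 CPM (836 to 913), a ratio of 1.45 (1.35 to 1.55). At 2000 UMIs a cell 30.4% vs. 43.5% of them had the gene. Angptl7 tenocyte-like cells had 192 vs. 254 CPM, a ratio of 1.32 (1.14 to 1.53), so that both tenocyte-like classes were higher in MVC but neither was past 1.5-fold. With cells thinned to 2000 UMIs both were past it, with log2 ratios of 0.79 and 0.65. In the Angptl7 class 3 cells held 56.0% of the Timp1 UMIs in DMSO and 29.3% in MVC. Doublet calls held 125 of its 327 DMSO UMIs and 1 of its 461 MVC UMIs. Over 7 alternatives the log2 ratio of that class ran from 0.16 to 1.08, beside 0.40 as first read. B cell-like cells had Timp1 in 1 of 206 and 5 of 106 cells. Tpbg (r = 0.88), Syn1 (r = 0.88), inside which Timp1 lies, and the tendon matrix gene Thbs4 (r = 0.83) were most like it.

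Inflammatory-like FAPs, the second main source of Timp1 in DMSO, had the opposite direction. They had 926 vs. 480 UMIs, 204 CPM (191 to 217) vs. 132 CPM (121 to 145), a ratio of 0.65 (0.58 to 0.73), and held 29.0% of all Timp1 UMIs in DMSO but 13.2% in MVC. The difference lay in cells with many UMIs. The gene was present in 96 of 441 and 104 of 393 cells, but 25 and 13 of these had 10 or more UMIs, holding 82.2% and 54.8% of the total. The thinned share of cells was 8.51% vs. 12.4%, against the direction of the CPM, and no order is read from it. On the log2 scale the ratio was -0.62, -0.40 without doublet calls, which held 122 of the DMSO UMIs, -0.17 with every cell weighted alike and -0.04 with cells thinned to 2000 UMIs. Timp1 was the only 1 of 7 members past the fold in these cells, where 3.98% of all genes were as much lower and 7.95% as much higher in MVC, and likewise the only 1 of 7 in all FAP-like cells (90.0 vs. 56.5 CPM), where 3.26% were as much lower and 11.5% as much higher. The other FAP classes did not share it. Parenchymal-like FAPs (491 vs. 727 cells) had 60 vs. 127 UMIs, 13.2 vs. 19.8 CPM, a ratio of 1.499 (1.09 to 2.07), and adventitial-like FAPs 47.4 vs. 45.6 CPM. Under the alternatives the log2 ratio of all FAP-like cells, -0.67, ran from -0.80 to -0.19, and the part of the mix of FAP classes in it was not tested.

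**Figure D4:**
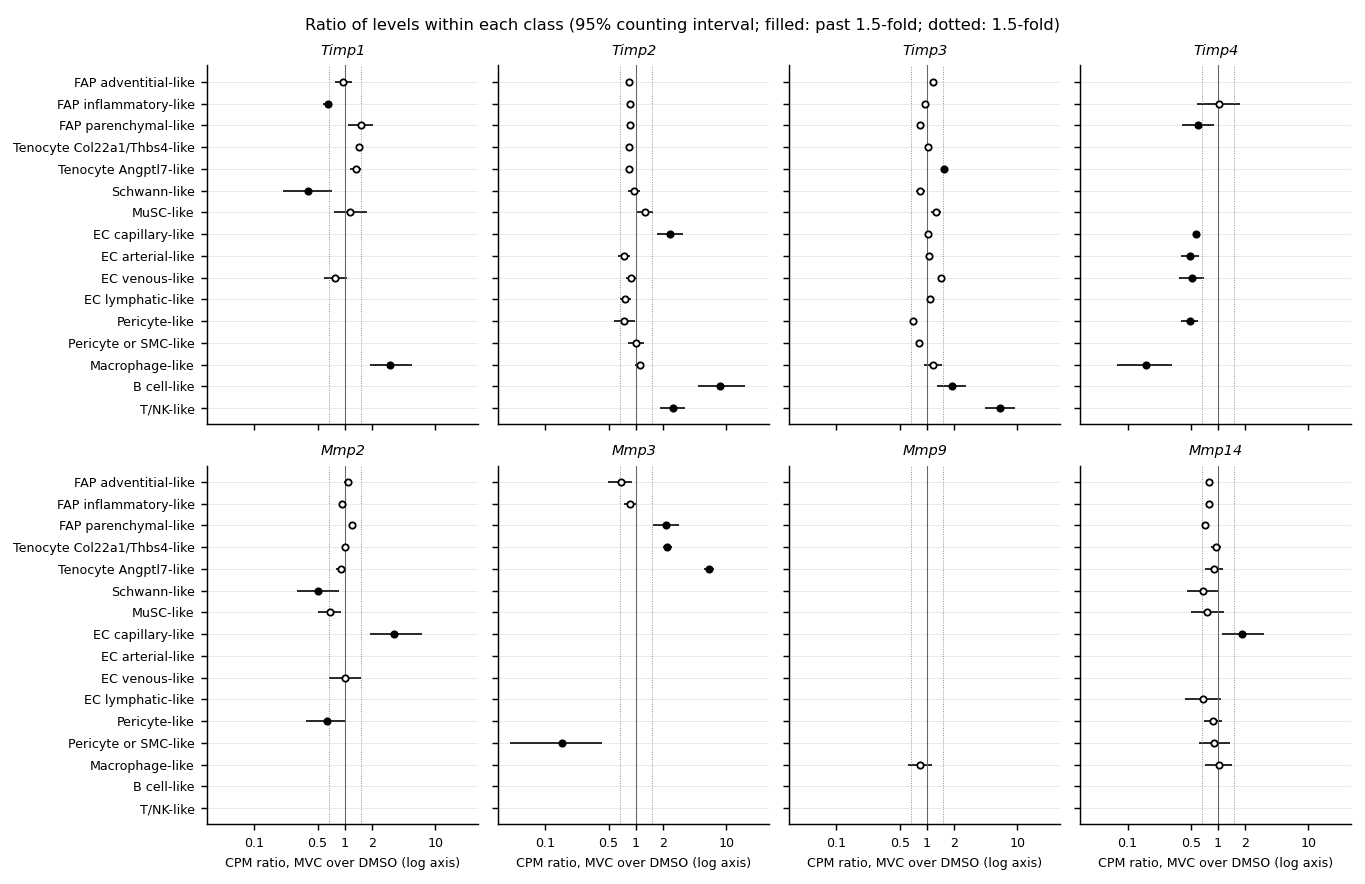
CPM ratio of MVC over DMSO (log axis) for each member in the 16 classes with at least 50 cells in each library; bars are 95% counting intervals, filled points are past 1.5-fold, and classes with under 50 UMIs of the gene have no point. Timp4 lies below 1 in 6 of its 7 classes, Mmp14 in 10 of 12, and Mmp3 is past the fold upward in 3 classes, both tenocyte-like classes among them, and downward in 1.

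Seen by class, parenchymal-like FAPs had 1 of 7 members past the fold upward (Mmp3; 12.1% of all genes) and 1 downward (Timp4, 55 vs. 47 UMIs; 4.09% of all genes). The latter lost its direction without doublet calls (log2 ratio 0.23). Adventitial-like FAPs had none of 6, lymphatic-like ECs none of 3 and MuSC-like cells none of 5, beside backgrounds of 8.95% upward and 4.33% downward, of 9.54% and 11.5%, and of 11.2% and 8.17%. In capillary-like cells 3 of 5 members, Timp2, Mmp2 and Mmp14, were past the fold upward beside 12.6% of all genes. They did so from low levels, 9.3 vs. 22.2 CPM, 2.2 vs. 7.7 CPM and 4.0 vs. 7.5 CPM, which rest on 60 vs. 109, 14 vs. 38 and 26 vs. 37 UMIs. The summed level of 7 FAP markers in these cells, all detected in both libraries, was 136 vs. 320 CPM, and its part in these ratios was not tested. Without doublet calls Mmp14 was no longer past the fold there (log2 ratio 0.38 instead of 0.90).

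The members past the fold in immune and glial cells likewise came with markers of other cells. B cell-like cells had 15 vs. 74 Timp2 UMIs and 62 vs. 67 Timp3 UMIs, both of the 2 members read and both higher in MVC (ratios 8.58 and 1.88), where 12.4% of all genes were as much higher and 8.3% as much lower. The 7 FAP markers summed to 337 vs. 3019 CPM in these cells, and 63 of the 74 Timp2 UMIs lay in doublet calls. T/NK-like cells also had both of the 2 members read higher in MVC, Timp2 (97 vs. 73 UMIs, ratio 2.55, or 0.54 on the log2 scale when thinned) and Timp3 (46 vs. 87 UMIs, ratio 6.41), beside 15.3% of all genes higher and 13.3% lower, with FAP markers at 466 vs. 2339 CPM and 7 tenocyte markers at 8.06 vs. 955 CPM. Macrophage-like cells had Timp1 past the fold upward (20 vs. 72 UMIs, 10.7 vs. 34.2 CPM, ratio 3.20) and Timp4 downward, beside 10.1% and 6.39% of all genes, and 3 cells held 70% and 53% of the Timp1 UMIs. FAP markers summed to 438 vs. 686 CPM and tenocyte markers to 9.08 vs. 53.1 CPM in them. The part of these markers in the results was not tested.

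Schwann-like cells had Timp1 (37 vs. 17 UMIs, 63.1 vs. 24.9 CPM, ratio 0.39, 0.21 to 0.72) and Mmp2 (42 vs. 25 UMIs, 71.6 vs. 36.6 CPM, ratio 0.51, 0.30 to 0.86) past the fold downward among 5 members, where 7.4% of all genes were as much lower and 12.2% as much higher. FAP markers summed to 3528 vs. 1952 CPM in them, and 3 cells held 68% and 35% of the Timp1 UMIs. Pericyte-like cells had 2 of 5 members past the fold downward, Timp4 and Mmp2 (51 vs. 25 UMIs, ratio 0.64, 0.38 to 1.04), beside 5.89% of all genes lower and 9.98% higher, with FAP markers at 2437 vs. 1608 CPM. With every pericyte-like cell weighted alike the log2 ratio of Mmp2 was 0.28 instead of -0.65, and without doublet calls it was -0.88. Cells with pericyte and smooth muscle markers had 1 of 4 downward, the few Mmp3 carriers described above, where 9.56% of all genes were as much lower and 10.8% as much higher. The part of the markers in these results was not tested.

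The other genes of the metalloproteinase system were read from 4 lists of 60 genes in all, of which 59 were in the matrices. Over all cells, 3 of 13 other MMPs were past the fold upward and 1 downward, 3 of 17 ADAMTS genes upward and none downward, none of 8 ADAM genes in either direction, and 2 of 13 regulators upward and 1 downward, beside 7.63% of all genes upward and 5.56% downward. Mmp15, a membrane MMP, had 4.70 vs. 8.33 CPM and Mmp23 had 6.50 vs. 10.1 CPM. Adamts12 had 66.8 vs. 119 CPM, Pcsk6, a proprotein convertase, 92.9 vs. 146 CPM, and Pcolce, which speeds the trimming of procollagen, 77.8 vs. 136 CPM. The lists' median log2 ratios were 0.13, 0.42, -0.02 and 0.04, beside 0.06 for all genes.

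In capillary-like ECs, where Timp4 was lower, the proteases that Timp3 can block went both ways. Of 7 ADAMTS genes 4 were past the fold upward and 2 downward, and of 5 other MMPs 2 upward and 1 downward, with none of 5 ADAM genes and 1 of 9 regulators upward, beside 12.6% of all genes upward and 3.84% downward. Adamts9 had 2331 vs. 1510 CPM (ratio 0.65, 0.63 to 0.67) and Adamts1, an aggrecan- and versican-cleaving enzyme that restrains vessel growth, 618 vs. 410 CPM (ratio 0.66, 0.63 to 0.70). Adamts5 had 13.4 vs. 32.2 CPM (ratio 2.40), Mmp15 14.01 vs. 35.2 CPM (ratio 2.52) and Mmp28 11.4 vs. 21.8 CPM (ratio 1.92). The Adamts5 ratio rests on 86 vs. 158 UMIs, and the gene was highest in adventitial-like FAPs (1041 CPM with both libraries together). FAP markers summed to 136 vs. 320 CPM in the capillary-like cells, and their part in this ratio was not tested. In lymphatic-like ECs Adamts1 had 1143 vs. 285 CPM (ratio 0.25) and Adamts9 1343 vs. 633 CPM (ratio 0.47), with 3 cells holding 49% and 63% of the DMSO UMIs.

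FAP-like cells also had lower Adamts1 and Adamts4 in MVC. Adamts1 had 770 vs. 492 CPM (ratio 0.64, 0.62 to 0.66), Adamts4, another aggrecan-cleaving enzyme, 188 vs. 113 CPM (ratio 0.60, 0.56 to 0.64) and Mmp11 22.9 vs. 11.3 CPM (ratio 0.49, 0.40 to 0.60). Higher in MVC were Adamts12, 122 vs. 225 CPM (ratio 1.84, 1.73 to 1.96), and Adamts6, 23.0 vs. 45.4 CPM (ratio 1.97, 1.72 to 2.27). By list, 2 of 7 other MMPs were upward and 2 downward, 4 of 14 ADAMTS genes upward and 3 downward, none of 7 ADAM genes in either direction and 2 of 13 regulators downward, beside 11.5% of all genes upward and 3.26% downward, with median log2 ratios of 0.27, 0.25, 0.04 and -0.05 beside 0.13 for all genes. In inflammatory-like FAPs A2m, a broad protease trap, had 64 vs. 7 UMIs. They lay in 16 of 441 DMSO cells and 2 of 393 MVC cells, and 3 of the DMSO cells held 51.6% of the UMIs there.

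In tenocyte-like cells the convertases and the procollagen enhancer differed along with Mmp3. Pcsk5, a proprotein convertase, had 575 vs. 250 CPM (ratio 0.43, 0.40 to 0.47) and Pcsk6 38.6 vs. 63.9 CPM (ratio 1.65, 1.35 to 2.03). Pcolce had 85.8 vs. 198 CPM (ratio 2.30, 2.03 to 2.62), and it was higher in MVC in both tenocyte-like classes, with ratios of 2.27 and 2.35. Mmp13, a collagenase, had 6 vs. 158 UMIs in Col22a1/Thbs4 cells, in 2 and 6 cells, and 3 of the MVC cells held 88.0% of them. Of 5 other MMPs 3 were past the fold upward, of 10 ADAMTS genes 2 upward, of 7 ADAM genes 1 downward, and of 12 regulators 2 upward and 2 downward, beside 9.27% of all genes upward and 5.39% downward. In MuSC-like cells Cd63, a cell-surface partner of Timp1, had 1674 vs. 1054 CPM (ratio 0.63, 0.59 to 0.67), the only 1 of 7 regulators past the fold. Of 5 ADAM genes 2 were downward there, and of 7 ADAMTS genes 1 was upward and 1 downward. Among all genes 8.17% were as much lower and 11.2% as much higher.

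Timp1, Timp3 and Timp4 each lie inside a synapsin gene on its opposite strand, Syn1, Syn3 and Syn2, which are known for their part in synaptic vesicles. The exons of Timp1 and Syn1 do not overlap, while those of Timp3 and Syn3 and of Timp4 and Syn2 do in some transcripts. Whether the counting used the strand is not given in the sources used here, so how far the counts keep a TIMP and its host apart is not known from them. Syn1 had 754 and 839 UMIs, 23.6 and 23.1 for each 100 Timp1 UMIs, and Syn3 had 3908 and 3294, 11.1 and 10.6 for each 100 Timp3 UMIs. Syn1 was found in 30.3% and 28.9% of the cells with Timp1 against 3.52% and 4.05% of the cells without it, and Syn3 in 43.7% and 40.2% of the cells with Timp3 against 5.65% and 7.40%. The cells with the TIMP gene were deeper, with medians of 11376 vs. 5395 UMIs for Timp1 in DMSO and 5972 vs. 5316 for Timp3.

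Syn2 had fewer UMIs for each UMI of its TIMP, and its level over the classes did not follow that of Timp4. It had 220 and 217 UMIs, 3.16 and 7.15 for each 100 Timp4 UMIs, and was in 3.24% and 3.25% of the cells with Timp4 against 1.86% and 1.58% of the others, although the cells with Timp4 were shallower (medians of 3978 vs. 6972 UMIs in DMSO and 3752 vs. 5910 in MVC). Over the 40 points of class and library Pearson's r on the log2(CPM + 10) scale was 0.88 for Timp1 and Syn1, 0.94 for Timp3 and Syn3 and -0.01 for Timp4 and Syn2. Points of a library share its depth and free RNA, so these are given as a description. Timp2 overlaps Cep295nl on the same strand, which had 79 and 76 UMIs.

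**Figure D5:**
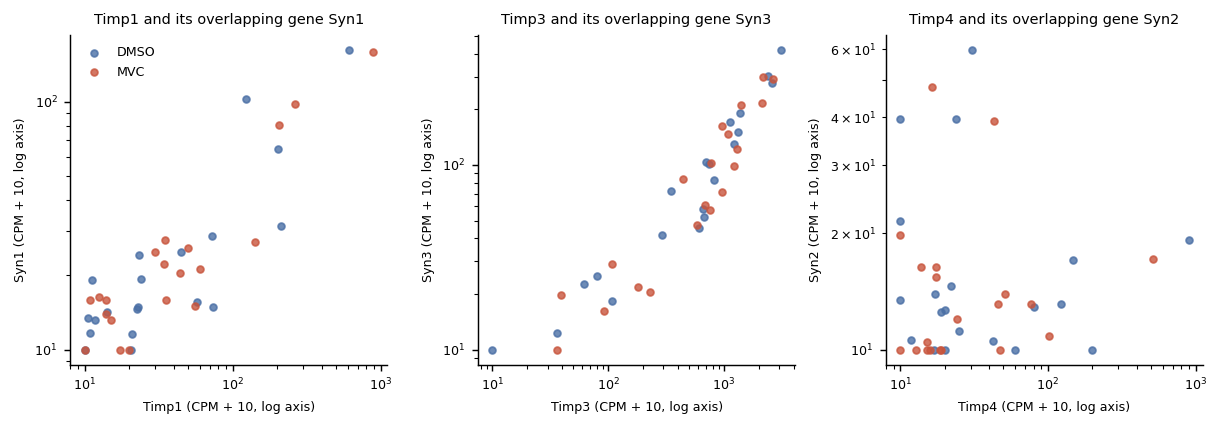
Level of the synapsin gene (vertical, CPM + 10) against the level of the TIMP inside it (horizontal, CPM + 10), both on log axes, for Timp1 and Syn1, Timp3 and Syn3, and Timp4 and Syn2; each point is 1 of 20 cell classes in the DMSO (blue) or MVC (red) library. Syn1 and Syn3 go up with the level of Timp1 and Timp3 (r = 0.88 and 0.94), and Syn2 does not with Timp4 (r = -0.01).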

How the data were processed

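Single-cell RNA-seq libraries (10x Genomics) of live limb muscle mononuclear cells, 1 for each treatment, were taken from their labels. The deposited values are raw UMI counts per gene and barcode, which the authors made with Cell Ranger 7.0.0 (named in the headers) for called cells alone, and the submitters' processing notes also name mm10 and Seurat 5.0.1. The annotation and the handling of introns and strand are not given in the sources used here. No comparison table of the authors was used, and no correction for free RNA was applied.

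The members and gene lists were chosen with earlier results of these data known. Cells were normalised to 10000 UMIs, 2000 variable genes were requested, the metalloproteinase and inhibitor genes were dropped, and 30 principal components and 20 neighbours gave 27 clusters (scanpy 1.11.5, leidenalg 0.10.2, resolution 1). A cluster was named from at least 3 raised markers, 144 low-depth endothelial-marker cells and 51 other cells stayed outside the named classes, and 474 cells called as doublets from simulated doublets were kept. Intervals are 95% exact Poisson (levels), exact conditional binomial (ratios) and Clopper-Pearson (shares), computed with scipy 1.17.1 and tested on simulated data. They cover counting error only, at median depths of 5802 and 5195 UMIs a cell. In the lists, genes named were those with at least 50 UMIs in a class, past 1.5-fold and with an interval without 1, up to 5 a class by UMIs. The 3 genes most like each member were ranked by Pearson's r over 20 classes in 2 libraries among 13095 genes. Alternatives covered scaling, weighting of cells, cell filter, doublets, clustering and depth. Gene positions came from GENCODE for GRCm38 and promoters from RefSeq for GRCm38.p6.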

Additional observations from a re-analysis of the deposited data

Results flagged for a closer look

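Timp1, Mmp2 and Mmp3 were past 1.5-fold in opposite directions in different cell classes, and this difference between classes was not tested, since each treatment had 1 library. Timp1 had a ratio of MVC over DMSO of 3.20 in macrophage-like cells, against 0.649 in inflammatory-like FAPs and 0.394 in Schwann-like cells. The macrophage-like value rests on 6 DMSO and 14 MVC cells with the gene and the Schwann-like value on 11 and 12. In inflammatory-like FAPs the log2 ratio, -0.62, was -0.04 with cells thinned to 2000 UMIs. Mmp2 had a ratio of 3.55 in capillary-like ECs (14 vs. 38 UMIs) and of 0.511 in Schwann-like cells (42 vs. 25 UMIs). Mmp3 had ratios of 6.39 in Angptl7 tenocyte-like cells, 2.24 in Col22a1/Thbs4 tenocyte-like cells and 2.14 in parenchymal-like FAPs, against 0.154 in cells with pericyte and smooth muscle markers, where 5 DMSO cells and 1 MVC cell carried the gene.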

How the results depend on the processing

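Over the alternatives run for each, 8 for capillary-like ECs and 7 for the other classes named here, the log2 ratio of Timp4 stayed between -0.91 and -0.75 in capillary-like, -1.11 and -0.88 in arterial-like and -1.06 and -0.75 in venous-like ECs, and that of Mmp3 between 2.62 and 2.78 in Angptl7 and 1.12 and 1.59 in Col22a1/Thbs4 tenocyte-like cells. In the following, values are log2 ratios and the cause was not tested. Timp1 in Col22a1/Thbs4 tenocyte-like cells went from 0.54 to 0.84 with each cell's own CPM averaged, 0.79 with cells thinned to 2000 UMIs and 0.43 with clusters drawn after centring. Timp3 in pericyte-like cells went from -0.50 to -0.84, -0.73 and -0.66 (cells averaged, thinned, doublets removed). Mmp2 in Col22a1/Thbs4 tenocyte-like cells gave 0.11 averaged and 0.17 thinned. Scaling by the median ratio gave -0.32 for Timp2 in adventitial-like FAPs and -0.91 for Timp4 in capillary-like ECs.

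Among results whose counting interval left out 0, the sign turned for Timp2 over all cells (from -0.05 to 0.0095 averaged and 0.089 thinned), for Mmp14 over all cells (from -0.13 to 0.011 thinned), for Timp3 in capillary-like ECs (from 0.05 to -0.050 by the median ratio and -0.063 averaged) and in lymphatic-like ECs (from 0.13 to -0.083 thinned), for Timp4 in all FAP-like cells (from -0.55 to 0.84 without doublets) and for Timp4 in parenchymal-like FAPs (from -0.72 to 0.23 without doublets and 0.042 thinned). Signs that turned among the other results included these: Mmp2 in pericyte-like cells, past the fold at -0.65, was 0.28 averaged, and Mmp14 in Schwann-like cells went from -0.54 to 0.39 thinned.

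Besides the first group of turned signs, thinning moved 38 member and class results beyond their counting interval and left 58 within it. These counts were 28 and 88 with cells averaged, 16 and 98 without doublets, 15 and 91 by the median ratio, 9 and 109 after centring, 4 and 112 at resolution 2 and 3 and 113 with a stricter cell filter (1000 genes, 5% mitochondrial). An alternative with too few UMIs or cells gave no value, and the median ratio was read only in classes with enough cells in each library. The count of genes past 1.5-fold in FAP-like (all) cells, 1890, became 2965 with a minimum of 20 UMIs and 1244 with 100, and that of genes past 1.5-fold in EC-like (all) cells, 1624, became 2620 and 1031, since the minimum sets how many genes are read. No paired analysis was possible because each group held 1 library, and no replicate could be left out. Members with few UMIs in a class are limited by depth.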
